A study of Rattus norvegicus with 6 samples.

Results

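The plasminogen and coagulation regulators described here are 9 genes, Serpine2, Plat, Plau, Plaur, F3, Tfpi, Tfpi2, Thbd and Anxa2, taken by gene name from the 33565 rows of a gene count table. All 9 were found as single rows and all 9 passed the filter on low counts. The table comes from cultured primary cardiomyocytes of 7-day-old Sprague-Dawley rats grown in culture medium containing 10% fetal bovine serum. The control group (3 libraries) received vehicle, and the progesterone group (3 libraries) received 100 nM progesterone, a steroid hormone, for 24 h. Both groups share the strain, age, medium and culture time. The labels call the replicates biological but name neither animals nor cultures, so p-values reflect only the variation among these 6 samples, part of which could be technical. The series title asks about progesterone, the transcriptional coactivator YAP and cardiomyocyte proliferation.

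Plasminogen is a circulating zymogen that tissue-type plasminogen activator (Plat) and urokinase (Plau) cut into plasmin, the protease that dissolves fibrin and helps to remodel extracellular matrix. Receptors such as the urokinase receptor (Plaur) and the annexin A2 complex hold these proteins at the cell surface, and inhibitors of the serpin family block the activators. Coagulation starts when tissue factor (F3) binds factor VIIa. Tissue factor pathway inhibitor (Tfpi) blocks that complex, while thrombomodulin (Thbd) binds thrombin and turns it towards activation of the anticoagulant protein C. In the heart, tissue factor is known from cardiomyocytes, and thrombomodulin and Tfpi from the endothelium.

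The libraries held between 21156793 and 25376220 counts. Cardiomyocyte markers were read in every library, with the summed level of 10 markers at 16333 to 16986 CPM (counts scaled by library size) in the controls and 16975 to 19507 CPM with progesterone, and fibroblast markers were read strongly as well. Of these 10 cardiomyocyte markers 3 were higher, Actc1 (from 4627 to 7514 CPM), Myh7 and Mybpc3, and 5 lower, among them Myh6 (from 4384 to 3498 CPM) and Tnnt2. At an adjusted p under 0.05 in edgeR's quasi-likelihood test, 63.0% of the 15075 tested genes changed, 31.2% being higher and 31.8% lower with progesterone. With upper quartile scaling 60.1% of the changed genes were higher, against 49.6% with TMM scaling (the trimmed mean of M-values), and the median change over all genes was 0.10 on the log2 scale instead of 0.00.

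Of the 9 regulators, F3, Thbd and Plau rose with progesterone, which is 3 of 9 beside 31.2% of all genes tested. Tfpi2, Tfpi, Plat, Serpine2 and Anxa2 fell, which is 5 of 9 beside 31.8%, and Plaur did not pass. The CPM values of the groups did not overlap for any of the 9, whereas the groups did not overlap for 68.6% of all genes tested. A change of at least 1.5-fold was called for 6 of the 9, against 29.0% of all genes tested. Of these 6, Plau passed that cut narrowly, at 1.51-fold, and was at 1.35-fold without control replicate 1. The median log2 fold change of the 9 was -0.34, beside 0.00 over all genes, and the median absolute value was 0.70 beside 0.34. These genes were chosen with results of the same data known, so that their counts carry no test as a list. In bulk samples fewer cells of a type and less RNA per cell cannot be told apart.

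No 2 of the 9 genes are close neighbours. In the coordinates of the table, whose rat build is not named, Serpine2 lies on chromosome 9 (85560863 to 85626094), Plat on chromosome 16 (74098260 to 74122889), Plau on chromosome 15 (3644769 to 3650819) and Plaur on chromosome 1 (81328183 to 81344708). F3 lies on chromosome 2 (225310624 to 225322272), Tfpi2 on chromosome 4 (28947965 to 28953067) and Anxa2 on chromosome 8 (75687100 to 75723594). Tfpi (71852744 to 71893618) and Thbd (142748674 to 142752325) share chromosome 3, far apart.

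**Figure D1:**
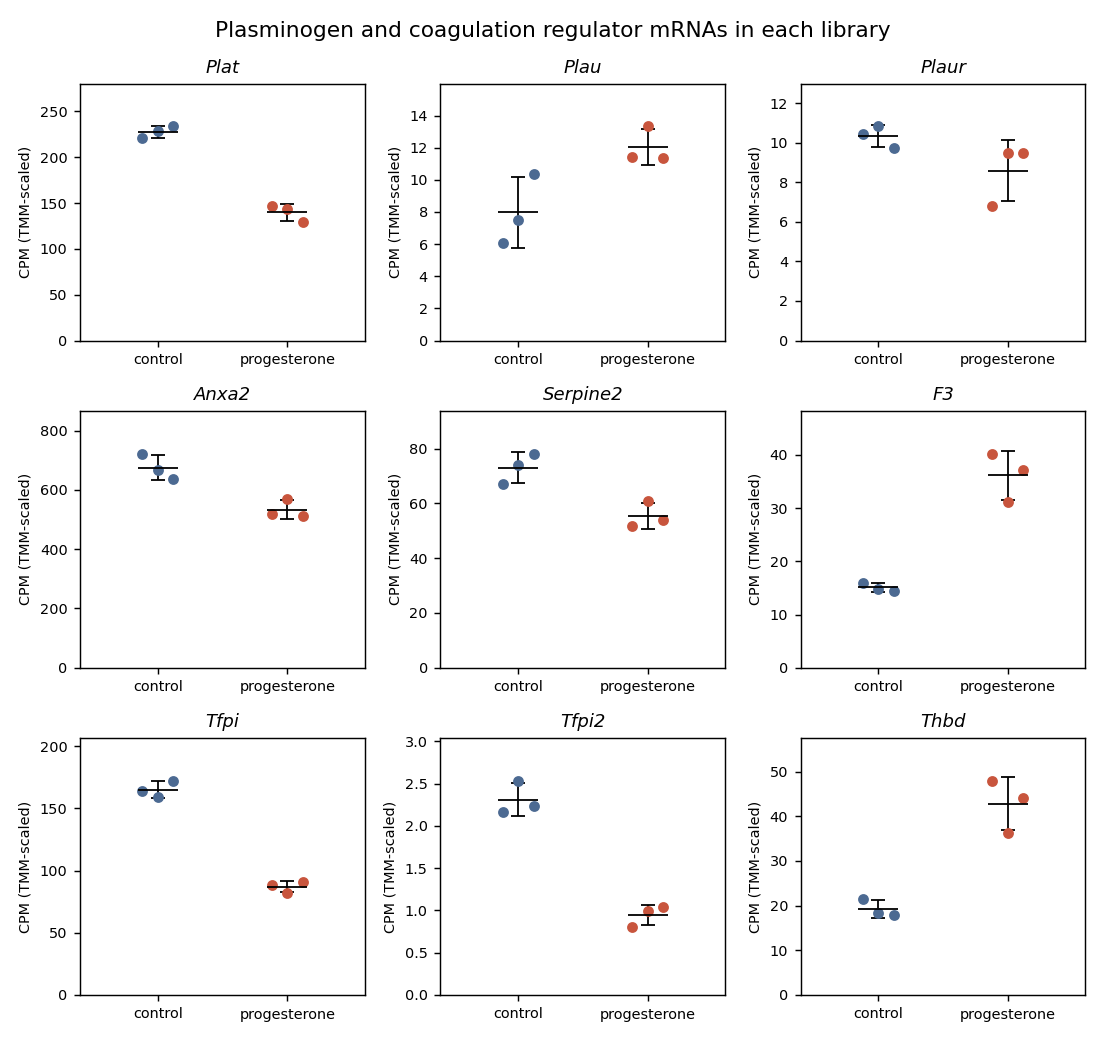
TMM-scaled CPM (vertical axes, from 0) of the 9 genes in the 3 control (blue) and 3 progesterone (red) libraries, with the mean and SD of each group as a bar with whiskers. F3, Thbd and Plau lie higher in the progesterone libraries and the other genes lower, and the gap is narrow for Plau and Plaur.

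Promoter entries in the RefSeq table of build GRCr8 matched 6 of the 9 genes, with 2 entries for Tfpi; Plat, F3 and Thbd had none. The 250 bases before the annotated start are shown for the 4 matched genes that fell together and for Plau, the matched gene that rose, 5′ to 3′ in gene orientation. Capitals mark matches on either strand to the TATA box TATAAA, the CCAAT box, the Sp1 site GGGCGG, the AP-1 site TGANTCA, the TEAD site GGAATG, the interferon-stimulated response element or the NF-kB consensus. Searches for the cAMP response element TGACGTCA, the E-box CACGTG and the steroid receptor half-site TGTTCT found no match in these windows. Neighbouring Sp1 matches overlap by a base in Serpine2.
Serpine2 (chr9:88637203-88637452, minus strand): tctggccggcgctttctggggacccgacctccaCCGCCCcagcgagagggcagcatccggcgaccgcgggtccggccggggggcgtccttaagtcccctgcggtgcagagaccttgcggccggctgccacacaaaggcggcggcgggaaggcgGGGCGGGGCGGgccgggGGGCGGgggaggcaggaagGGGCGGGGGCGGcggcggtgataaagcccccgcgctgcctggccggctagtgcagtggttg
Anxa2 (chr8:78986002-78986251, plus strand): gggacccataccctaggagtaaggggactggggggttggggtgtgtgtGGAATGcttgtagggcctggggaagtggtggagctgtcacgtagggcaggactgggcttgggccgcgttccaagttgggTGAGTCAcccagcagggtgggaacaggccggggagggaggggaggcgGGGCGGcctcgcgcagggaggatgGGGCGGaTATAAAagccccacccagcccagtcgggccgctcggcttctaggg
Tfpi, downstream start (chr3:89980725-89980974, minus strand): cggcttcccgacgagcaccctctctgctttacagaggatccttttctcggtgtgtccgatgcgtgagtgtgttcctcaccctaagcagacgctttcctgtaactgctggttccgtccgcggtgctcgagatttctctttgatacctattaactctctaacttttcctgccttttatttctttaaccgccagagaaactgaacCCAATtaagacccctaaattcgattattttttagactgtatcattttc
Tfpi, upstream start (chr3:89983544-89983793, minus strand): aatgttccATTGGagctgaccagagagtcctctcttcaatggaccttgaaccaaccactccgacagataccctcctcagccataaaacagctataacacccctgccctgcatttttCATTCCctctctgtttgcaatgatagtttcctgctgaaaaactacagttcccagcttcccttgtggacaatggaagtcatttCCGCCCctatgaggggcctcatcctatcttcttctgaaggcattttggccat
Tfpi2 (chr4:32941277-32941526, minus strand): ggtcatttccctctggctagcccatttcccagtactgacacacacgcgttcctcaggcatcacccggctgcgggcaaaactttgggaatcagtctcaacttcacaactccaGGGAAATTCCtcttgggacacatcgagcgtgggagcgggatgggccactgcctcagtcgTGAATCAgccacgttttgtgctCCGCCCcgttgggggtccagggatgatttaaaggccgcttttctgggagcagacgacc
Plau (chr15:3511988-3512237, minus strand): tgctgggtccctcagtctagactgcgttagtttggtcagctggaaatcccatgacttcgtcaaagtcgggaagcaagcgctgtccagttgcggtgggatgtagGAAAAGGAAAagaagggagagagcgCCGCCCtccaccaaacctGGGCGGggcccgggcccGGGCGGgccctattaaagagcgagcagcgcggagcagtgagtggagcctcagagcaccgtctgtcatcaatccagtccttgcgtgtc

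No single one of these sequences was found in every window of the matched genes that fell. GGGCGG was missing only from the downstream Tfpi window, so each of these genes held it. Plau, which rose, held it too. Serpine2 held 6 matches to GGGCGG in a window with 76.8% G and C, against a median of 51.2% over 33469 promoter windows, while the Tfpi windows had 45.6% and 47.6%. Matches to GGGCGG were present in 30.5% of all windows of this length. Anxa2 had the TATAAA match, 40 to 45 bases before the start, a sequence in 12.9% of all windows. TGANTCA, in 6.34% of all windows, was found in Anxa2 and Tfpi2, which fell, and in Plaur, which did not pass the test. Tfpi2 also held the NF-kB match (3.54% of all windows), and Plau the match to the interferon-stimulated response element (3.41%). GGAATG, in 12.1% of all windows, was found in Anxa2 and in the upstream Tfpi window. The CCAAT box was found in both Tfpi windows and in 34.0% of all windows. The sequences without a match here were present in 1.59% (cAMP response element), 5.59% (E-box) and 17.5% (steroid receptor half-site) of all windows. A match describes these letters and shows no binding.

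Among the activators, Plat fell and Plau rose. Plat was read at 221, 228 and 234 CPM in control libraries 1, 2 and 3, and at 146, 144 and 130 CPM in progesterone libraries 1, 2 and 3. The groups lay far apart relative to the spread within them. Its log2 fold change was -0.70 ± 0.05 (SE), a 1.63-fold decrease, with an adjusted p of 6.4e-09 by edgeR's quasi-likelihood test. A second row, LOC100910418, is described as tissue-type plasminogen activator-like and held 65 control and 31 progesterone counts, against 16259 and 9142 for Plat. Reads may have been split between both rows when they were counted. Plau, the gene of urokinase, was read at 6.06, 7.47 and 10.4 CPM in control libraries and at 11.4, 13.3 and 11.4 CPM in progesterone libraries. Control library 3 lay close to the progesterone libraries, and the controls had a coefficient of variation of 27.6%. The log2 fold change of Plau was 0.60 ± 0.17 (SE; adjusted p = 0.011, edgeR), with adjusted p values up to 0.048 when single libraries were left out.

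Per length, Plat was the more abundant activator transcript in both groups. The deposited FPKM (fragments scaled by gene length and library total) of Plat was 89.2 ± 2.38 in the controls and 54.8 ± 3.6 with progesterone, and that of Plau 4.23 ± 1.16 and 6.39 ± 0.584 (SD, n = 3). The Plat to Plau ratio of FPKM within a library was 26.9, 22.5 and 16.6 in the controls and 9.45, 7.98 and 8.39 with progesterone. It was thus 2.51-fold lower with progesterone, without overlap between the groups. Ratios within a library do not depend on the scaling between libraries. An exact two-sided permutation test of 3 against 3 libraries cannot give a p below 0.10, which was the p of each of the 7 ratios computed, also after Benjamini-Hochberg adjustment.

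Among the surface receptors, Anxa2 fell and Plaur did not pass. Plaur, which anchors urokinase to the membrane, was read at 10.4, 10.8 and 9.72 CPM in control libraries and at 6.82, 9.46 and 9.48 CPM in progesterone libraries. The highest progesterone library came close to the lowest control, and the log2 fold change of -0.26 ± 0.13 (SE) did not pass (adjusted p = 0.091, edgeR). Anxa2, which encodes the heavy chain of the annexin A2 complex that binds Plat and plasminogen, was read at 723, 666 and 638 CPM in control libraries and at 521, 569 and 512 CPM in progesterone libraries. All 3 progesterone values lay under the lowest control value, with a log2 fold change of -0.34 ± 0.05 (SE) and an adjusted p of 6.3e-05 by edgeR. S100a10, the light chain of the same complex, was read at 127 ± 6.21 CPM in control libraries and 120 ± 12.6 CPM in progesterone libraries (SD, n = 3), and its groups overlapped. It did not pass (log2 fold change -0.09 ± 0.07, adjusted p = 0.31, edgeR), but leaving out progesterone replicate 2 made it pass (-0.17, adjusted p = 0.0085) and the sign turned with upper quartile scaling (0.01). The Anxa2 to S100a10 ratio of FPKM was 2.21 ± 0.0613 in the controls and 1.86 ± 0.0838 with progesterone (SD, n = 3).

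Serpine2, which encodes protease nexin-1, an inhibitor of thrombin, urokinase and tissue-type activator, fell modestly. It was read at 67.0, 73.9 and 78.2 CPM in control libraries and at 51.6, 60.8 and 54.0 CPM in progesterone libraries. The highest progesterone value stayed under the lowest control value, at a log2 fold change of -0.40 ± 0.07 (SE; adjusted p = 0.00033, edgeR). The Plat to Serpine2 ratio of FPKM was 2.78, 2.61 and 2.52 in the controls and 2.39, 2.00 and 2.03 with progesterone. Plat thus fell somewhat more than this inhibitor, 1.24-fold by the ratio, and the groups did not overlap.

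Serpinb2 and Serpini1, which also encode inhibitors of the activators, fell to under 1 CPM. Serpinb2, plasminogen activator inhibitor 2, fell from 25.6 ± 1.11 to 0.583 ± 0.198 CPM (SD, n = 3), a 43.7-fold decrease with an adjusted p of 6.1e-14 by edgeR. Serpini1, neuroserpin, an inhibitor of tissue-type activator best known from neurons, fell 41.9-fold, from 24.5 ± 0.881 to 0.581 ± 0.211 CPM (adjusted p = 1.3e-13, edgeR). Each gene rested on 38 progesterone counts in all, which limits the size of these folds. The log2 fold changes of -5.45 (Serpinb2) and -5.39 (Serpini1) became -3.43 and -2.90 on the log2(FPKM + 1) scale. Without progesterone replicate 1 that of Serpinb2 was -5.74, and without progesterone replicate 2 that of Serpini1 was -5.67. The row of Serpini1 lies 612 bases from that of Pdcd10 on the other strand, and no label says whether the counting used strand. Pdcd10 held 3314 control and 2555 progesterone counts, with a log2 fold change of -0.25.

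Plat and Plau together summed to 93.4 ± 3.52 FPKM in the controls and 61.2 ± 3.87 with progesterone. The sum was lower in every progesterone library than in any control. These are levels of mRNA and do not measure protease activity.

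**Figure D2:**
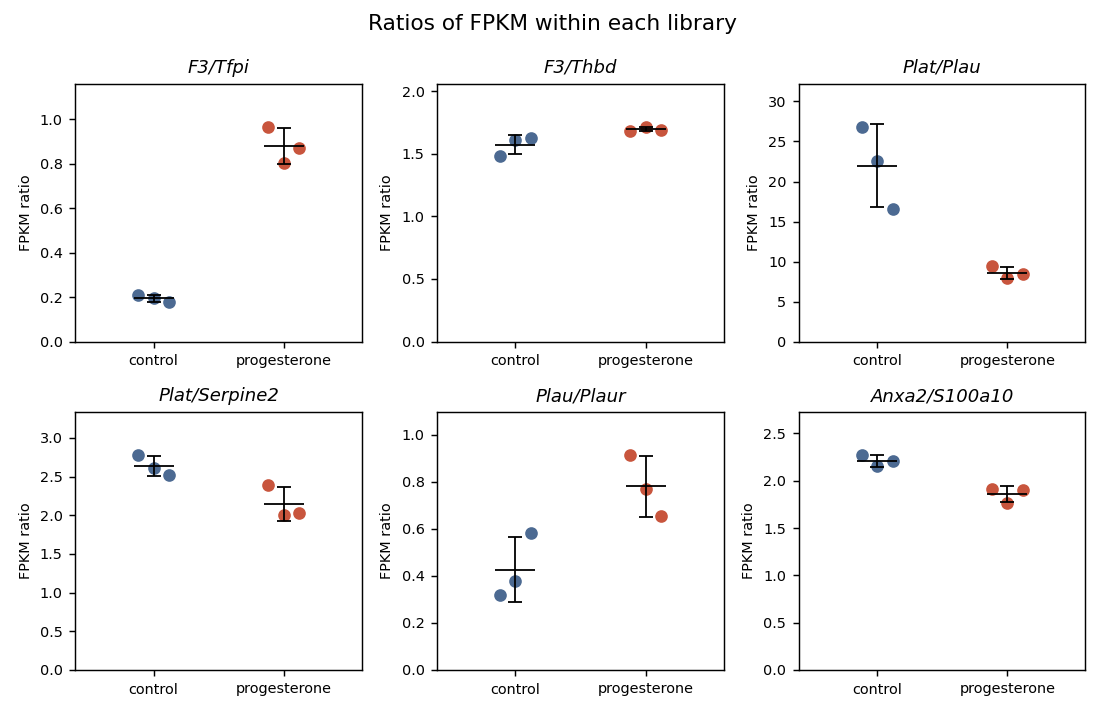
Ratio of deposited FPKM of paired genes (vertical axes, from 0) within each of the 3 control (blue) and 3 progesterone (red) libraries, with mean and SD. F3 to Tfpi is higher and Plat to Plau lower in every progesterone library. F3 to Thbd stays between 1.49 and 1.72 in all 6 and is slightly higher in every progesterone library.

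The wider list of plasminogen activation and fibrinolysis, 18 further genes, had 11 tested members, of which 1 was higher and 8 lower (2 were higher with upper quartile scaling). Over all genes tested, 31.2% were higher and 31.8% lower. The median log2 fold change of the list was -0.87, beside 0.00 over all genes. Plg, which encodes plasminogen itself, was barely read and lower, at 1.34 ± 0.181 CPM in control libraries and 0.627 ± 0.0712 CPM in progesterone libraries (SD, n = 3; adjusted p = 0.0037, edgeR). Lrp1, an endocytic receptor that clears complexes of activators and serpins, fell 1.27-fold (adjusted p = 0.00023). Igf2r, a receptor that binds the urokinase receptor and plasminogen besides its growth factor ligand, rose 1.24-fold (adjusted p = 1.2e-05), and St14, which encodes the membrane protease matriptase, fell 2.54-fold (adjusted p = 7.2e-06).

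On the coagulation side, F3 rose, and Tfpi and Tfpi2 fell. F3, tissue factor, was read at 16.0, 14.8 and 14.5 CPM in control libraries and at 40.3, 31.1 and 37.2 CPM in progesterone libraries. Even the lowest progesterone library stood well above every control, with a log2 fold change of 1.26 ± 0.09 (SE), a 2.4-fold increase, and an adjusted p of 2e-08 by edgeR. Tfpi, whose Kunitz-type domains block factor Xa and the tissue factor complex, was read at 164, 159 and 172 CPM in control libraries and at 88.4, 82.0 and 90.9 CPM in progesterone libraries. The groups were widely separated, with a log2 fold change of -0.92 ± 0.05 (SE; a 1.89-fold decrease, adjusted p = 2.1e-10, edgeR). Tfpi2, a related Kunitz-type inhibitor that acts on plasmin and trypsin-like proteases more than on factor Xa, was read at 2.17, 2.53 and 2.23 CPM in control libraries and at 0.805, 0.988 and 1.04 CPM in progesterone libraries. It was the least read of the 9 genes per length and rested on 165 control and 62 progesterone counts. The log2 fold change of Tfpi2 was -1.28 ± 0.23 (SE; adjusted p = 0.00019, edgeR), and its size on the log2(FPKM + 1) scale was -0.58, since the pseudocount understates the change of low genes.

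The tissue factor to Tfpi ratio of FPKM within a library was 0.207, 0.197 and 0.179 in the controls and 0.967, 0.806 and 0.869 with progesterone. Control libraries thus held several Tfpi transcripts per tissue factor transcript by length-scaled level, and progesterone libraries similar levels of both. The ratio was 4.52-fold higher with progesterone, and leaving out single libraries moved the log2 difference of 2.18 by less than the spread between replicates. The Tfpi to Tfpi2 ratio was 33.6 ± 3.69 in the controls and 43.7 ± 6.72 with progesterone (SD, n = 3).

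Thrombomodulin moved with tissue factor. Thbd was read at 21.6, 18.4 and 17.9 CPM in control libraries and at 48.0, 36.3 and 44.1 CPM in progesterone libraries. All progesterone libraries exceeded all controls (log2 fold change 1.15 ± 0.11, SE; a 2.22-fold increase, adjusted p = 9.4e-06, edgeR). In the table the length of Thbd equals the 3652 bases it spans, so that it has no intron there. The F3 to Thbd ratio of FPKM was 1.49, 1.61 and 1.62 in the controls and 1.68, 1.72 and 1.69 with progesterone. This was the smallest shift of the 7 ratios, 1.08-fold, although the groups did not overlap. Progesterone library 2 was the lowest of its group for both genes.

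The partners of thrombomodulin did not rise with it. Procr, the endothelial protein C receptor, was read at 5.91 ± 0.653 CPM in control libraries and 4.37 ± 0.588 CPM in progesterone libraries (SD, n = 3; log2 fold change -0.43 ± 0.16, adjusted p = 0.027, edgeR). That call was lost without control replicate 2 (adjusted p = 0.073), control replicate 3 (0.085) or progesterone replicate 1 (0.10), with upper quartile scaling (0.075) and with DESeq2 (0.066). Pros1, which encodes protein S, a cofactor of activated protein C and of Tfpi, fell 2.17-fold, from 155 ± 7.13 to 71.7 ± 4.84 CPM (adjusted p = 5.9e-11, edgeR). Proc, protein C itself, had no count in any library, where a count of 0 over a group allows for up to 3 counts over that group.

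**Figure D3:**
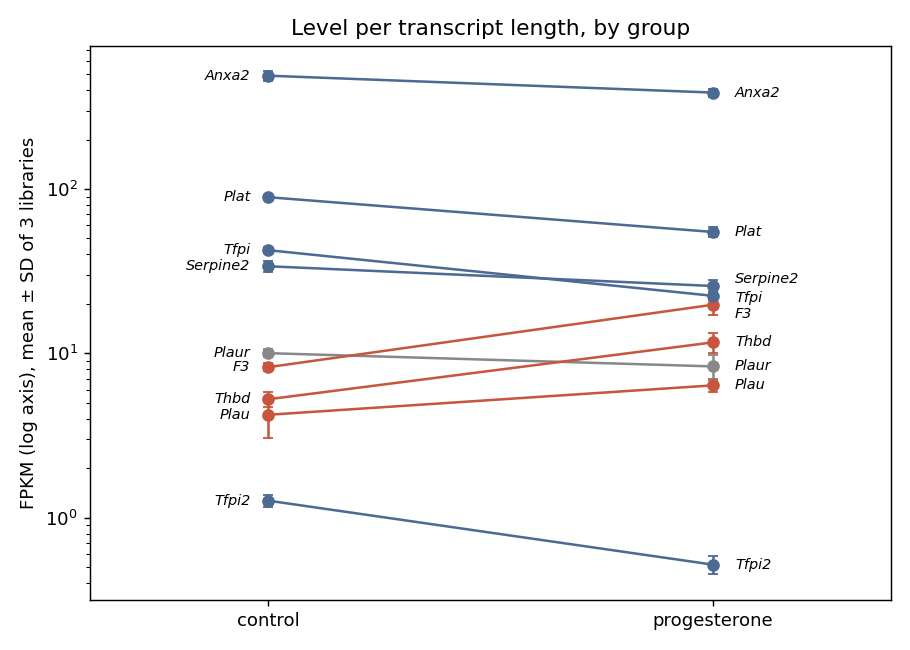
Deposited FPKM (log axis) of the 9 genes as mean ± SD of 3 control and 3 progesterone libraries, with lines joining the groups (red for genes called higher, blue for lower, grey for Plaur). F3 lies between Plaur and Thbd in the controls and next to Tfpi with progesterone.

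Ordered by level per length, Anxa2 stood first in both groups, at 489 ± 32.4 FPKM in the controls and 386 ± 22 FPKM with progesterone (SD, n = 3), followed by Plat. Tfpi came next in the controls at 42.5 ± 1.73 FPKM, ahead of Serpine2 at 33.9 ± 2.56 FPKM. Plaur at 10.0 ± 0.542 FPKM, F3 at 8.25 ± 0.452 FPKM and Thbd at 5.26 ± 0.557 FPKM followed. Among neighbours in the control order, only the ranges of Thbd and Plau overlapped. With progesterone, Serpine2 at 25.7 ± 2.18 FPKM followed Plat, and the ranges of Tfpi at 22.4 ± 1.19 FPKM and F3 at 19.8 ± 2.56 FPKM overlapped. Thbd, at 11.7 ± 1.63 FPKM, then stood above Plaur at 8.34 ± 1.48 FPKM, whose range overlapped that of Plau. Tfpi2 was last in both groups, at 1.27 ± 0.106 and 0.519 ± 0.0671 FPKM.

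Coagulation factors and natural anticoagulants form a list of 24 further genes, of which 10 were tested, 5 being higher and 3 lower, beside 31.2% and 31.8% of all genes tested. With upper quartile scaling 6 were higher and 1 lower. The median log2 fold change of the list was 0.28, beside 0.00 over all genes. Besides factors and anticoagulants, the list holds Ggcx, Vkorc1, Lman1 and Mcfd2, which act in their carboxylation or transport. The tested factors F5 and F8 did not pass (adjusted p = 0.13 and 0.28, edgeR). Of the 14 that were not tested, 3 had no count in any of the 6 libraries, and most of the others encode plasma proteins known mainly from the liver, such as F2, prothrombin, with 2 control and 2 progesterone counts. Among the genes that rose were Vkorc1, the vitamin K epoxide reductase (from 28.0 ± 0.348 to 42.0 ± 0.663 CPM, adjusted p = 2.4e-07, edgeR) and Ggcx, the vitamin K-dependent gamma-carboxylase (1.22-fold, adjusted p = 5.9e-05). Vkorc1 lies 687 bases from Prss53 on the same strand, a row with 95 control and 272 progesterone counts. Lman1, a cargo receptor for factors V and VIII, rose 1.21-fold (adjusted p = 6.1e-05), while Mcfd2, which encodes the other subunit of that receptor, fell from 52.7 ± 2.17 to 46.1 ± 1.86 CPM (SD, n = 3; log2 fold change -0.19, adjusted p = 0.0054, edgeR). Upper quartile scaling ended the call of Mcfd2 (adjusted p = 0.13). Serpinc1, which encodes antithrombin, an inhibitor of thrombin and factor Xa, rose 1.69-fold, from 3.33 ± 0.171 to 5.63 ± 0.252 CPM (adjusted p = 0.00041, edgeR). F5, F8, Mcfd2 and Serpinc1 were named after their values were seen.

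Protease-activated receptors, which thrombin and other clotting proteases cleave at the cell surface, had 2 of 4 tested members higher and 1 lower, a share of changed members near the 63.0% of all genes tested. F2r, the main thrombin receptor PAR1, rose from 97.4 ± 6.1 to 121 ± 7.77 CPM (SD, n = 3; adjusted p = 0.00023, edgeR). F2rl1, the receptor PAR2 that the tissue factor and factor VIIa complex can cleave, rose 1.83-fold, from 3.08 ± 0.609 to 5.64 ± 0.576 CPM (adjusted p = 0.00049). F2rl3, PAR4, was read at 1.5 ± 0.181 CPM in control libraries and 0.219 ± 0.192 CPM in progesterone libraries, with 14 progesterone counts in all. Its log2 fold change was -2.77 ± 0.45 (SE, adjusted p = 6.9e-05, edgeR). It became -3.66 without progesterone replicate 2 and -2.27 without progesterone replicate 3. On the log2(FPKM + 0.1) and log2(FPKM + 1) scales it was -1.52 and -0.32.

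**Figure D4:**
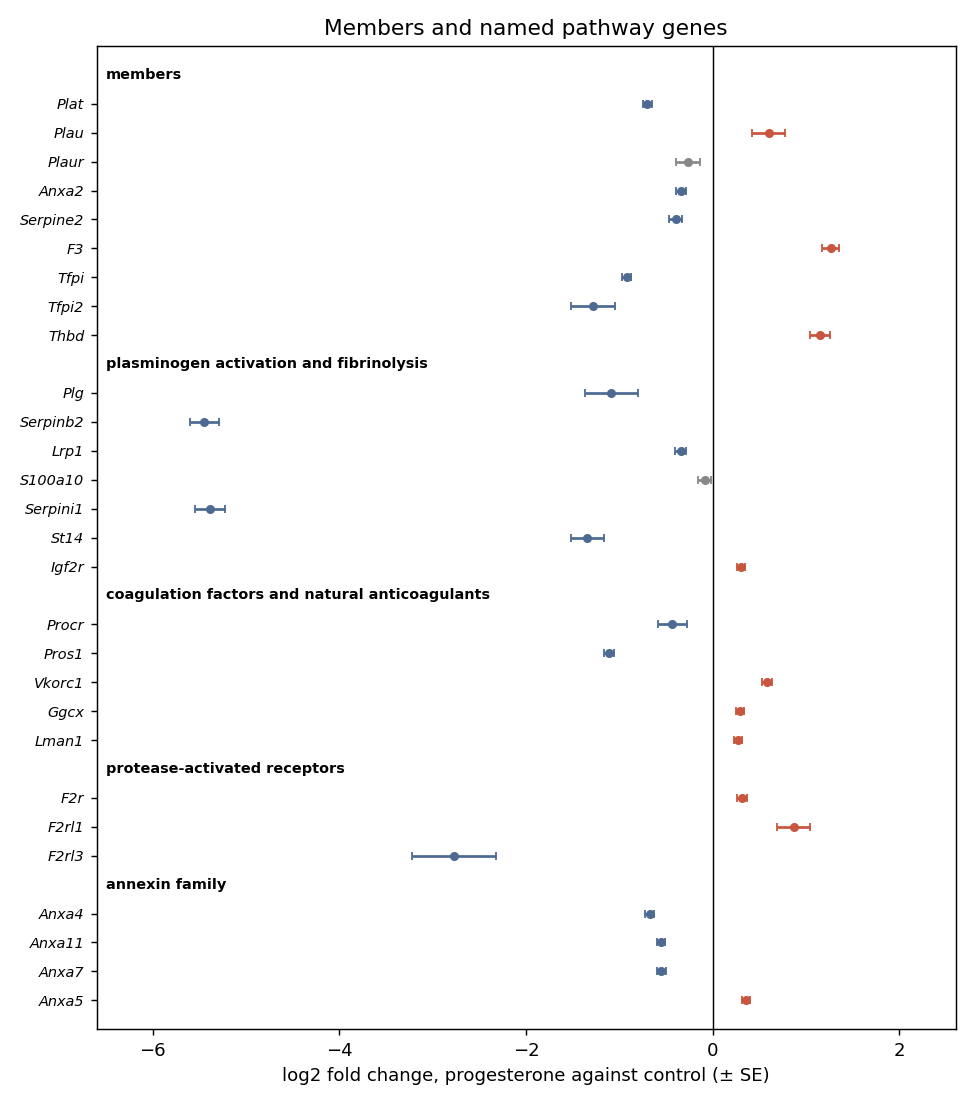
Log2 fold change with progesterone against control (horizontal axis, ± SE from edgeR) of the 9 genes and of the named genes of 4 related lists. Red points are called higher, blue points lower and grey points did not pass. Serpinb2 and Serpini1 lie near -5.4, far from Serpine2.

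The annexins, relatives of Anxa2 that bind membranes in a calcium-dependent way, moved both ways. Of 9 tested relatives, 3 were higher and 5 lower, beside 31.2% and 31.8% of all genes tested, and the median log2 fold change was -0.55, beside 0.00. Anxa4, Anxa11 and Anxa7 fell 1.6-fold, 1.47-fold and 1.47-fold, beside 1.27-fold for Anxa2, with adjusted p values of 5.4e-09, 1.7e-08 and 5.4e-08 (edgeR). Anxa5, an annexin that binds phosphatidylserine and is known as an anticoagulant, rose from 347 ± 7.03 to 443 ± 10.2 CPM (SD, n = 3; adjusted p = 1.7e-06, edgeR).

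Markers of other cell types were read in the same libraries, and their counts stand beside 31.2% higher and 31.8% lower over all genes tested. Endothelial markers, of the cell type known for Thbd, Tfpi and Plat, had 3 of 9 tested members higher and 3 lower, with a summed level of 177 to 230 CPM in control libraries and 146 to 195 CPM in progesterone libraries. Of this list, Cldn5 was at 0 in every library, while Tek (from 29.0 to 8.03 CPM), Emcn and Egfl7 fell, and Flt1 (from 18.9 to 38.6 CPM), Vwf and Esam rose. Smooth muscle and pericyte markers had 9 of 12 higher and 3 lower, summing to 3704 to 4138 CPM in control libraries and 6717 to 7176 CPM in progesterone libraries. Acta2 (from 690 to 2611 CPM) was among those that rose, while Abcc9 (from 173 to 76.6 CPM), Kcnj8 and Des fell. Fibroblast markers had 5 of 9 higher and 3 lower (24833 to 25788 and 31408 to 33841 CPM). Col3a1 (from 6556 to 13735 CPM), Col1a1 (from 14907 to 16727 CPM), Tcf21, Dpt and Fap rose. Pdgfra (from 804 to 370 CPM), Dcn (from 2094 to 946 CPM) and Ddr2 (from 243 to 150 CPM) fell. Leukocyte markers had 6 of 8 tested members higher and 1 lower (43.0 to 57.6 and 69.5 to 81.2 CPM), with Cd3e at 0. Csf1r (from 3.29 to 16.2 CPM) was among those that rose, and Cd74 fell from 12.6 to 1.63 CPM. Epicardial and mesothelial markers, of cells that also express thrombomodulin, had 3 of 8 higher and 4 lower (208 to 223 and 246 to 273 CPM), where Msln (log2 fold change 1.15), Upk3b and Aldh1a2 rose and Upk1b (log2 fold change -1.34), Lrrn4, Tbx18 and Krt19 fell. The part of these cells in the changes of the 9 genes was not tested, and Pecam1, Itgam and Col1a2 were not analysed here.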

How the data were processed

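RNA-seq libraries of enriched mRNA, prepared with Illumina's TruSeq RNA kit per the labels' protocols, were grouped by title into 3 control and 3 progesterone libraries. Bowtie 0.12.2 and mm8, a mouse build, are named in the submitters' processing notes, although the rows carry rat Ensembl identifiers. The sources used here do not name the rat build, the annotation or the counter. Per gene, the authors deposited whole-number raw counts and FPKM values, which scale by gene length and library total. The divisor implied by the deposited FPKM was within 1.57% of the count total.

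Counts were tested over all genes with edgeR 4.0.16 in R 4.3.3 (filterByExpr at a count of 10 and a total of 15, TMM, robust glmQLFit, glmQLFTest, Benjamini-Hochberg adjustment at 0.05), after a check on simulated data. CPM values are TMM-scaled, and the SE comes from the F statistic. Alternatives were other scalings and filters, each library left out, a fit blocked on replicate number, DESeq2 1.42.0 on the counts, and limma 3.58.1 on log2(FPKM + 1) and log2(FPKM + 0.1). Chi-square values per degree of freedom of 5.67 to 9.88 between replicates exceeded counting noise, and no library was treated as a duplicate.

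The 9 genes, the related lists and the tests were chosen with earlier results of these data known. Named genes are the 9, a fixed set of 8 direct partners, of which 1 is not reported here and is left out of its list's counts, and up to 4 genes per list with the smallest adjusted p; the FPKM ratios and the genes named as neighbours, copies, markers or unread, and Mcfd2 and Serpinc1, were chosen after their values were seen.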

Additional observations from a re-analysis of the deposited data

How the results depend on the processing

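The counts of 3 higher and 5 lower genes among the 9 regulators were the same under all 15 alternatives: other scalings and filters, each library left out, the replicate block, DESeq2, and limma on log2(FPKM + 1) or log2(FPKM + 0.1). The count of changed genes over all genes ranged from 8608 to 9871. With upper quartile scaling 2 of the plasminogen activation and fibrinolysis genes were higher instead of 1, 1 of the coagulation factors and natural anticoagulants was lower instead of 3, and the log2 fold change of S100a10 was 0.0103 instead of -0.09. For the named genes, no other direction turned, 5 alternatives ended the call of Procr, 1 that of Mcfd2, and 1 made that of S100a10. With a replicate block 9508 genes changed instead of 9497. Same-numbered libraries did not deviate together (correlations of deviations 0.0492, 0.0180 and -0.000936), and control library 2 correlated more with progesterone library 1 than with its own number. Low counts limit Tfpi2, Plg and F2rl3, and the progesterone values of Serpinb2 and Serpini1. The small groups limit the ratios, for which no p below 0.10 is possible.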

Other observations

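F10, which encodes factor X, had 37 counts over the control libraries and none over the progesterone libraries. Taking 3 counts over the progesterone group as the limit that a count of 0 allows, F10 was at least 11.3-fold lower. This limit takes the control counts of 9, 8 and 20 as exact and leaves out their counting error and spread. F13a1, the factor XIII A subunit known from macrophages and platelets, went the other way, with 5 control and 55 progesterone counts. Both were below the filter and were not tested, and they were named after their values were seen.

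The row of Calcrl, which encodes the receptor for adrenomedullin and calcitonin gene-related peptide, lies 7512 bases from Tfpi on the same strand. Calcrl held 4283 control and 1074 progesterone counts, with a log2 fold change of -1.87 (adjusted p = 6.3e-10, edgeR), beside -0.92 for Tfpi. The row of Ap3m2, 7121 bases from Plat on the opposite strand, had a log2 fold change of -0.87 (adjusted p = 0.00024, edgeR), beside -0.70 for Plat. Sstr4, 7030 bases from Thbd, had 7 control and 39 progesterone counts and was not tested.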
